A study of Mus musculus with 10 samples.

Results

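The 10 genes described here are brakes on cell division and a regulator of one of them: the cyclin-dependent kinase inhibitors Cdkn1a, Cdkn1b, Cdkn1c, Cdkn2a, Cdkn2b, Cdkn2c and Cdkn2d, the retinoblastoma gene Rb1, the p53 gene Trp53, and Mdm2, which acts against p53. They were chosen by name among the 47069 gene IDs of the count files, and all 10 passed the filter on low counts that left 17644 genes for testing. RNA was sequenced from 10 tumours that grew after mouse prostate cancer cells had been placed into an anterior prostate lobe of male CD-1 Nude hosts, animals without a working thymus. The line P1 was derived from a prostate tumour of a donor aged 14 months and gave 3 tumours. The line CP1 (donor aged 6 months) gave 3 tumours and the line CP2 (donor aged 8 months) gave 4.

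The donors of CP1 and CP2 carried a deletion of Ctnnb1 exon 3 on one allele, written Ctnnb1pc(ex3)Δ/+ in the labels, which takes away the phosphorylation sites that mark beta-catenin for breakdown. P1 donors are not labelled with this allele, and the labels do not say which promoter drove the prostate deletion. Each line stands for one donor tumour, so line, genotype and donor age cannot be told apart. Since no label ties a library to an animal, a p-value here measures only the spread between samples, which may be technical. CP2 replicate 1 was kept in CP2, which its tissue and source labels name, although its title names CP1. Host and tumour cells are both of mouse, and in such bulk samples fewer cells of a type and less RNA per cell cannot be told apart.

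Progress from G1 into DNA synthesis needs cyclin D with Cdk4 or Cdk6 and cyclin E with Cdk2, which phosphorylate Rb and release E2F transcription factors. Ink4 proteins (from Cdkn2a, Cdkn2b, Cdkn2c and Cdkn2d) bind Cdk4 and Cdk6, whereas Cip and Kip proteins (from Cdkn1a, Cdkn1b and Cdkn1c) bind a wider range of cyclin and kinase complexes. p53 induces Cdkn1a and Mdm2, Mdm2 targets p53 for degradation, and p19Arf, a second product of Cdkn2a, blocks Mdm2. In mouse prostate epithelium these brakes are known for a p53-dependent senescence that holds early tumours in check.

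Cdkn2a and Cdkn2b lie next to each other on chromosome 4 and were lower in both CP lines, so the sequences before their starts are shown first, with those of Cdkn1a and Mdm2, the pair of p53 targets. All are RefSeq promoter windows of GRCm38.p6, of which the stretch outside the annotated transcript is printed 5′ to 3′ on the gene's strand. Cdkn2a has 2 starts: the upstream one (chr4:89294654-89294869, minus strand) precedes the first exon of p19Arf, and the downstream one (chr4:89282193-89282442, minus strand) precedes the first exon of p16Ink4a and lies within the span of the longer transcript. The Cdkn2b stretch is chr4:89311040-89311282 on the minus strand, that of Cdkn1a chr17:29090729-29090975 on the plus strand, and that of Mdm2 chr10:117710759-117711008 on the minus strand. Capitals mark matches, on either strand, to the E2F motif (TTTGGCGC, TTTCGCGC or TTTCCCGC), the GC box (GGGCGG), the p53 half-site by its consensus, or the CCAAT box (CCAAT).
Cdkn2a upstream start: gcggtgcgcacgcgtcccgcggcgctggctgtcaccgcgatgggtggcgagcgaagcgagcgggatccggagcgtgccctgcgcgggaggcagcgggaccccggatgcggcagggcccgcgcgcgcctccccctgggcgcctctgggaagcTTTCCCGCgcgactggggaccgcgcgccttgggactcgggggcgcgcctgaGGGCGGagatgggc
Cdkn2a downstream start: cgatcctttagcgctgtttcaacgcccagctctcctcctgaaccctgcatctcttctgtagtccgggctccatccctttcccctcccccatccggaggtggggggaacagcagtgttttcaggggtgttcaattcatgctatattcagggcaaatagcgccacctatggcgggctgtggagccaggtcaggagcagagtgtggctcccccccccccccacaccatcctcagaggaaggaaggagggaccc
Cdkn2b: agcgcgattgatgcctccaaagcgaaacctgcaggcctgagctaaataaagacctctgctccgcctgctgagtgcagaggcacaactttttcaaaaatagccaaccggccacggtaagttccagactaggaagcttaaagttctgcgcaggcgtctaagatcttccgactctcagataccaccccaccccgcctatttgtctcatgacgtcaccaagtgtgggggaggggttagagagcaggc
Cdkn1a: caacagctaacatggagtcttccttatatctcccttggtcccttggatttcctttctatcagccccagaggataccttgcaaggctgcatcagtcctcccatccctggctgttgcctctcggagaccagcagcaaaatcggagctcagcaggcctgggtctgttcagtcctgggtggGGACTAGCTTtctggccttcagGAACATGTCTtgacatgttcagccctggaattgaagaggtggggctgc
Mdm2: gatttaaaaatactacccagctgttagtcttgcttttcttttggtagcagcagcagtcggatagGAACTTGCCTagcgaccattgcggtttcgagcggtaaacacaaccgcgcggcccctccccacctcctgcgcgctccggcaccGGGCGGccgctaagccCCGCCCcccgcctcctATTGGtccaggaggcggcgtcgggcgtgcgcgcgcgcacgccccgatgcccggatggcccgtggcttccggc
Distances are counted from the RefSeq start to a motif's first base, and that start lies beyond the end of the stretch where the stretch was shortened. The upstream Cdkn2a stretch held an E2F motif 99 bases and a GC box 48 bases before the RefSeq start at 89294619, which is downstream of the annotated transcript start at 89294653, and its bases were 78.7% G or C. No motif searched, TATA box (TATAAA) and TCF/LEF motif (CTTTGAA or CTTTGAT) included, was found in the downstream Cdkn2a stretch (60.0% G or C) or in that of Cdkn2b (53.5%). The Cdkn1a stretch held a p53 half-site 73 bases and another 51 bases before the start at 29090979. A second RefSeq start of Cdkn1a, at 29093769 within the gene, had GC boxes 104 and 46 bases before it and no p53 half-site in its window, which is not printed. The Mdm2 stretch held a p53 half-site at 186 bases, GC boxes at 104 and 88 bases and a CCAAT box at 72 bases before the start. Of all 32851 RefSeq windows of 250 bases, 1.53% held the E2F motif, 7.13% a p53 half-site, 32.7% a GC box, 33.8% a CCAAT box, 12.4% a TATA box and 7.48% a TCF/LEF motif. These matches describe letters only.

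In the comparison of CP1 with P1, Cdkn1a, Cdkn2d and Mdm2 were higher and Cdkn1c, Cdkn2a, Cdkn2b and Trp53 lower, 3 and 4 of the 10 genes. Among the 17644 genes, 22.4% were called higher in CP1 and 22.4% lower. In CP2 against P1, 5 were higher (Cdkn1b, Cdkn2c, Cdkn2d, Rb1 and Mdm2) and 3 lower (Cdkn1c, Cdkn2a and Cdkn2b), where 28.3% of all genes were higher and 28.4% lower. In CP2 against CP1, 4 were higher (Cdkn1b, Cdkn2b, Cdkn2c and Rb1) and 2 lower (Cdkn1a and Mdm2), beside 21.3% and 21.9% of all genes. Both comparisons with P1 share its 3 tumours. The median log2 fold change of the 10 genes was -0.15, 0.08 and -0.08 in these comparisons, and that of all genes was -0.01, 0.0015 and -0.0054.

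**Figure D1:**
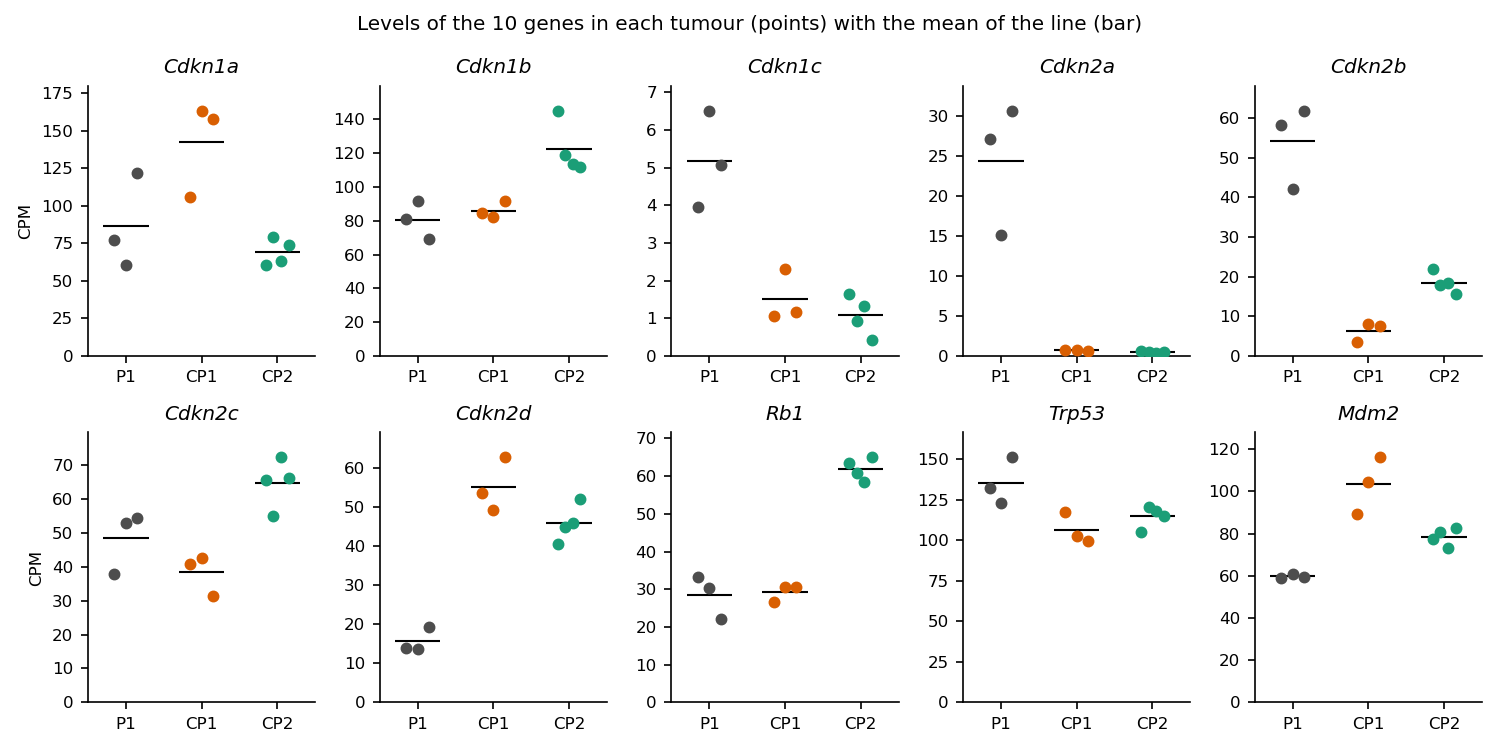
Levels in CPM (y axis, each panel with its own scale from 0) of the 10 genes in each tumour (points) of P1 (n = 3), CP1 (n = 3) and CP2 (n = 4), with the mean of each line as a bar. Cdkn2a stood at 15.1 CPM or more in P1 and at no more than 0.706 CPM in any CP1 or CP2 tumour, while Cdkn2d and Mdm2 were lowest in the P1 tumours.

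Depth was 28050484 to 37180721 counts in P1, 25081535 to 30546426 in CP1 and 18800912 to 20638085 in CP2. The labelled prostate origin was checked against 14 prostate epithelial markers, which together took 0.979% to 2.21% of counts in P1, 0.131% to 0.258% in CP1 and 0.0555% to 0.0751% in CP2, with no marker at 0 throughout a line. The epithelial adhesion gene Epcam, at 861 to 1281 CPM in P1, was at 15.6 to 31.4 CPM in CP1 and at a mean of 13.4 CPM in CP2. The simple epithelial keratin Krt8 went from 2907 to 6517 CPM in P1 to 54.9 to 253 CPM in CP1 and 22.1 to 118 CPM in CP2. Transcripts of 12 seminal vesicle and secretory prostate genes took 15.3%, 6.86% and 1.90% of counts in P1 replicates 1, 2 and 3, and at most 0.170% in any CP tumour. Transcripts of 7 urothelial genes took 0.00604%, 0.138% and 0.0551% in CP1 replicates 1, 2 and 3, 0.0159% to 0.0379% in P1 and at most 0.00122% in CP2. Most of the P1 share was Krt20 (134 to 353 CPM), which was lower in CP1 (log2 -4.37 ± 0.84, adjusted p = 0.0019), while the other 6 genes were higher in CP1. The uroplakin gene Upk3a was at 8.16, 249 and 99.0 CPM in CP1 replicates 1, 2 and 3 and at most 0.255 CPM in P1. Fibroblast markers (10 genes) took 0.506% to 0.866% in P1, 1.50% to 2.34% in CP1 and 0.828% to 1.02% in CP2, mostly from collagen genes. In CP1 against P1, 2 of them were called higher (Col3a1, log2 2.42, and Col1a1, log2 1.08). Thy1 was lower (log2 -2.39), and 7 were not called. The part of these shares in the values below was not tested. Levels are CPM, the read count of a gene as a share of the library size scaled with TMM, and a gene is called higher or lower at a Benjamini-Hochberg adjusted p below 0.05 in edgeR's quasi-likelihood test.

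Cdkn2a (ENSMUSG00000044303, GRCm38 chromosome 4, 89274471 to 89294653) encodes p16Ink4a and p19Arf from separate first exons, which gene counts do not separate. It stood at 27.1, 15.1 and 30.7 CPM in P1, 0.706, 0.681 and 0.648 CPM in CP1 and 0.616, 0.539, 0.365 and 0.465 CPM in CP2. The lowest P1 tumour was far above all 7 CP tumours, and the CP values rested on only 16 to 21 counts per library in CP1 and 8 to 12 in CP2. Cdkn2a was 35.6-fold lower in CP1 (log2 -5.15 ± 0.31 SE, adjusted p = 2.161e-06) and 48.7-fold lower in CP2 (log2 -5.61 ± 0.29, adjusted p = 6.017e-07). The CP lines did not differ detectably from each other (log2 -0.45 ± 0.31, adjusted p = 0.254), although every CP2 value was below every CP1 value. With P1 replicate 3 as the only P1 tumour, that with the fewest seminal vesicle transcripts, the falls were log2 -5.52 and -5.97.

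Cdkn2b (ENSMUSG00000073802, chromosome 4, 89306299 to 89311039) encodes p15Ink4b, an Ink4 protein known as a target of TGF-beta signalling. Its levels were 58.2, 42.1 and 61.9 CPM in P1, 3.39, 8.08 and 7.49 CPM in CP1, and 21.9, 17.9, 18.3 and 15.7 CPM in CP2. The 3 lines did not overlap, with P1 highest, CP2 between and CP1 lowest. The fall was 8.55-fold in CP1 (log2 -3.10 ± 0.30, adjusted p = 3.108e-05) and 2.93-fold in CP2 (log2 -1.55 ± 0.26, adjusted p = 6.472e-04). CP2 lay 2.92-fold above CP1 (log2 1.55 ± 0.28, adjusted p = 0.0017). Without CP1 replicates 2 and 3 that rise was log2 2.44.

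Cdkn2d (ENSMUSG00000096472, chromosome 9, 21288410 to 21291407), which encodes p19Ink4d, went the other way from Cdkn2a and Cdkn2b. It stood at 13.8, 13.8 and 19.3 CPM in P1, 53.6, 49.4 and 62.8 CPM in CP1 and 40.5, 44.9, 45.9 and 52.1 CPM in CP2. Every CP tumour exceeded every P1 tumour, and the CP lines overlapped. Cdkn2d rose 3.54-fold in CP1 (log2 1.82 ± 0.16, adjusted p = 1.621e-05) and 2.93-fold in CP2 (log2 1.55 ± 0.15, adjusted p = 2.053e-05). The difference between CP2 and CP1 was log2 -0.27 ± 0.14 (adjusted p = 0.157).

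Cdkn2c (ENSMUSG00000028551, chromosome 4, 109660876 to 109667189), the gene of p18Ink4c, set CP2 apart from CP1. It measured 37.7, 52.9 and 54.4 CPM in P1, 40.8, 42.6 and 31.5 CPM in CP1, and 65.4, 54.9, 72.3 and 66.0 CPM in CP2. All CP2 tumours were above all others, though CP2 replicate 2 and P1 replicate 3 nearly met, and P1 and CP1 overlapped. CP2 exceeded CP1 by log2 0.76 ± 0.16 (adjusted p = 0.0039), which without CP1 replicates 2 and 3 was 0.66 and not called (adjusted p = 0.0766). The rise over P1 was small (log2 0.42 ± 0.16, adjusted p = 0.0431) and was not called in 11 of 17 settings, among them the removal of P1 replicate 1 (adjusted p = 0.163), P1 replicate 2 (0.0606), CP2 replicate 1 (0.0778), CP2 replicate 3 (0.103) or CP2 replicate 4 (0.0805). CP1 differed from P1 by log2 -0.34 ± 0.17, not called (adjusted p = 0.132), a fall that was called without P1 replicate 1 (log2 -0.50, adjusted p = 0.0213).

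The Ink4 genes were then compared per length, as CPM per kilobase of annotated exon. In P1 Cdkn2b had the highest mean of the 10 genes, 38.9 CPM per kilobase, its range of 30.3 to 44.5 overlapping that of Trp53 (30.4 to 37.4), and Cdkn2a stood at 20.7. In CP1 the highest means were those of Cdkn1a (40.1, range 29.8 to 46.0) and Cdkn2d (35.1, range 31.4 to 39.9), which overlapped. In CP2 Cdkn2d (29.1, range 25.8 to 33.1), Trp53 (28.4, range 26.0 to 29.8) and Cdkn1b (26.9, range 24.6 to 31.9) had the highest means and overlapped. Cdkn2a had the lowest mean in both CP lines, 0.579 and 0.424, and overlapped there with Cdkn1c (0.742 and 0.529). Of the summed level per kilobase of the 7 inhibitors, Cdkn2b made up 27.1% to 32.4% in P1, 2.41% to 4.89% in CP1 and 9.82% to 13.6% in CP2. Cdkn2a made up 11.5% to 17.9% in P1 and at most 0.596% elsewhere, while Cdkn2d made up 6.79% to 7.90% in P1, 26.4% to 33.7% in CP1 and 22.2% to 28.8% in CP2. The sum itself overlapped between lines, at 112 to 155 CPM per kilobase in P1, 101 to 123 in CP1 and 111 to 116 in CP2. The 4 Ink4 genes together gave 64.0% to 68.0% of it in P1, 45.1% to 51.7% in CP1 and 56.1% to 61.6% in CP2.

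**Figure D2:**
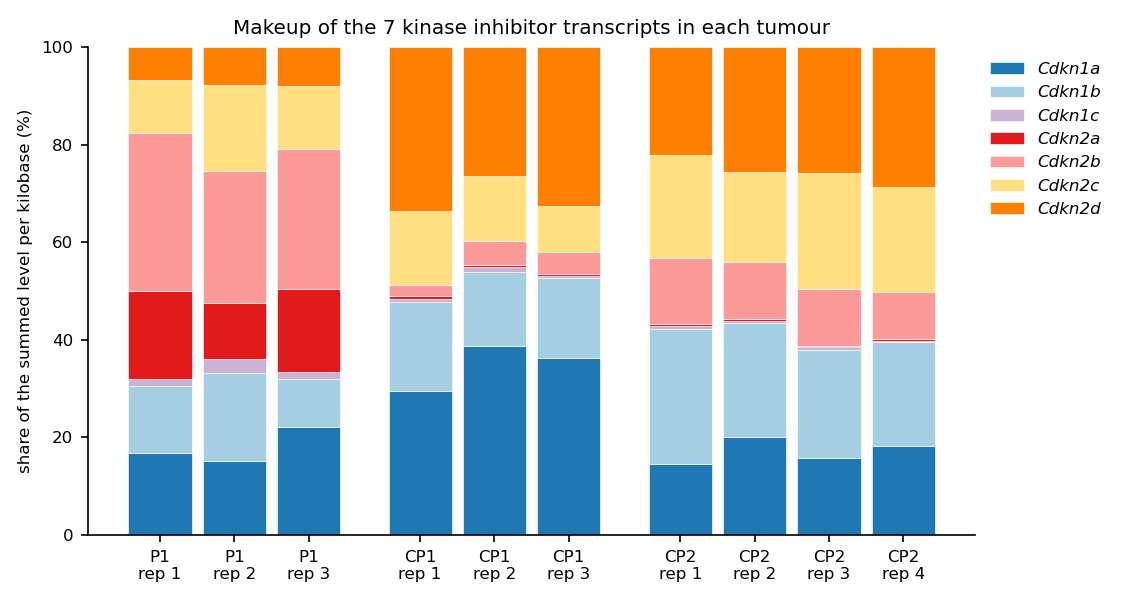
Share (%, y axis, from 0 to 100) of each of the 7 kinase inhibitor genes in their summed level per kilobase of exon, one stacked bar per tumour. Cdkn2a and Cdkn2b fill 38.6% to 50.3% of the P1 bars and Cdkn2d takes 22.2% to 33.7% of the CP1 and CP2 bars.

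The genes around Cdkn2a and Cdkn2b on chromosome 4 were measured to see whether the whole stretch was low in the CP lines. Mtap, the methylthioadenosine phosphorylase gene (89137122 to 89181081) next to Cdkn2a, was at 150, 150 and 165 CPM in P1, 326, 321 and 193 CPM in CP1 and 347, 304, 371 and 330 CPM in CP2. It was thus higher in every CP tumour, by log2 0.85 ± 0.18 in CP1 (adjusted p = 0.0034) and 1.12 ± 0.17 in CP2 (adjusted p = 3.658e-04). Further out, Mllt3, a reader of acylated histones (87769925 to 88033364), rose by log2 0.53 ± 0.12 in CP1 (adjusted p = 0.0053) and 1.75 ± 0.12 in CP2 (adjusted p = 2.365e-06). Elavl2, a neuronal RNA-binding protein gene (91250763 to 91400785), rose from a mean of 0.123 CPM in P1 to 2.36 CPM in CP1 and 5.40 CPM in CP2. Dmrta1 (89679436 to 89694772), beyond Cdkn2b, was near the limit of detection everywhere, with at most 0.156 CPM in P1, 0.0405 in CP1 and 0.616 in CP2, and was called lower in CP1 (adjusted p = 0.0273) and higher in CP2 (adjusted p = 0.0086). Ifne (88879538 to 88880201) was too rare to test. Counts of RNA do not measure gene copy number.

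**Figure D3:**
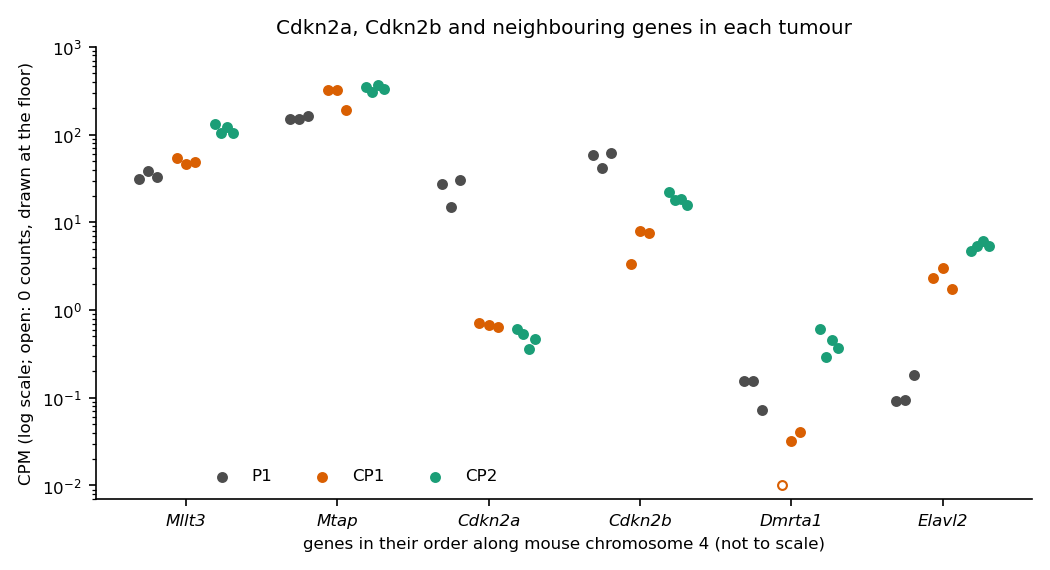
CPM (y axis, log scale) of Cdkn2a, Cdkn2b and 4 neighbouring genes in each tumour, in their order along chromosome 4, with an open point for 0 counts drawn at the floor of the plot. Cdkn2a and Cdkn2b are lower in CP1 and CP2 than in P1, while Mllt3, Mtap and Elavl2 on either side are higher.

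Polycomb complexes and the T-box factors Tbx2 and Tbx3 are known repressors of Cdkn2a. Of 14 such genes, 5 were higher and 0 lower in CP1, and 5 higher and 2 lower in CP2, with medians of log2 0.21 and 0.32. Beside them, 22.4% of all genes were higher and 22.4% lower in CP1, and 28.3% and 28.4% in CP2. Tbx3 stood at 200, 102 and 93.7 CPM in P1, 298 to 334 CPM in CP1 and 386 to 462 CPM in CP2, and rose by log2 1.25 ± 0.25 (adjusted p = 0.0023) and 1.67 ± 0.24 (adjusted p = 2.393e-04). Suz12, a core subunit of the complex that methylates histone H3 at lysine 27, rose by log2 1.05 ± 0.09 in CP2 (adjusted p = 6.673e-06). It stood at 75.8 to 87.2 CPM in CP1 and 56.0 to 65.8 CPM in P1. Tbx2 fell by log2 -2.21 ± 0.52 in CP2 (adjusted p = 0.0047). Its P1 tumours were far apart, at 114, 111 and 27.2 CPM in replicates 1, 2 and 3, against 15.4 to 20.2 CPM in CP2. P1 replicate 3 was thus much nearer to CP2 than the others were. Bmi1, the member best known for silencing Cdkn2a, was not called in either line (log2 0.13 ± 0.12 and 0.20 ± 0.11). Kdm6b, in the list but known to remove the Polycomb mark, was among the 5 that rose in CP1 (log2 0.53). In CP2 against CP1, 2 were higher and 3 lower.

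Among the Cip and Kip genes, Cdkn1a (ENSMUSG00000023067, chromosome 17, 29090976 to 29100727) encodes p21, the main p53-induced inhibitor. It stood at 77.2, 60.4 and 122 CPM in P1, 106, 164 and 158 CPM in CP1 and 60.4, 79.1, 63.2 and 74.3 CPM in CP2. CP1 and P1 overlapped, P1 spanned the whole CP2 range, and CP2 lay below every CP1 tumour. CP2 was 2.06-fold below CP1 (log2 -1.04 ± 0.23, adjusted p = 0.0055) and did not differ detectably from P1 (log2 -0.32 ± 0.23, adjusted p = 0.266). The rise in CP1 over P1 (log2 0.72 ± 0.25, adjusted p = 0.0402) was not called in 8 of 15 settings. They included leaving out P1 replicate 1 (adjusted p = 0.121), P1 replicate 2 (0.145), CP1 replicate 2 (0.117) or CP1 replicate 3 (0.111), and scaling without the seminal vesicle list (0.0524). CP1 replicates 2 and 3, highest for Cdkn1a, were also those with the larger urothelial shares given above. They also had larger shares of 9 smooth and skeletal muscle genes (0.243% and 0.368%, against 0.0398% in replicate 1), whose part was not tested. Without both, the rise over P1 was log2 0.29 (adjusted p = 0.564) and the fall in CP2 log2 -0.61 (adjusted p = 0.207), neither called. With P1 replicate 3 as the only P1 tumour, CP2 was lower than P1 by log2 -0.85 (adjusted p = 0.0186).

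Cdkn1b (ENSMUSG00000003031, chromosome 6, 134920401 to 134925513) encodes p27, which holds cyclin E with Cdk2 in check in resting cells. Its levels were 81.0, 91.8 and 69.1 CPM in P1, 84.4, 82.0 and 91.9 CPM in CP1, and 145, 119, 114 and 112 CPM in CP2. CP2 was above all 6 other tumours, with replicate 1 furthest out, and P1 and CP1 overlapped. CP2 exceeded P1 by log2 0.60 ± 0.12 (adjusted p = 0.0021) and CP1 by log2 0.51 ± 0.12 (adjusted p = 0.0080), while CP1 against P1 was log2 0.09 ± 0.13 (adjusted p = 0.586). Without CP1 replicates 2 and 3, the difference between the CP lines was log2 0.53 and not called (adjusted p = 0.0919).

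Cdkn1c (ENSMUSG00000037664, chromosome 7, 143458339 to 143461050) encodes p57 and is imprinted, with expression from the maternal allele. It was the lowest of the 7 inhibitors in P1 per kilobase of exon, at a mean of 2.54 CPM per kilobase. Its levels were 3.94, 6.51 and 5.07 CPM in P1, 1.06, 2.30 and 1.17 CPM in CP1, and 1.64, 0.932, 1.32 and 0.419 CPM in CP2. No CP tumour reached the P1 range, and the CP lines overlapped. The fall was log2 -1.77 ± 0.46 in CP1 (adjusted p = 0.0100) and log2 -2.26 ± 0.43 in CP2 (adjusted p = 0.0014), on 9 to 71 counts per CP library. With P1 replicate 3 as the only P1 tumour, the CP1 fall was log2 -1.77 and not called (adjusted p = 0.0554).

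Rb1 (ENSMUSG00000022105, chromosome 14, 73183673 to 73325822), whose protein binds E2F factors and is released from them by cyclin-dependent kinases, was higher in CP2 than in P1 and in CP1. It stood at 33.3, 30.3 and 22.1 CPM in P1, 26.5, 30.7 and 30.6 CPM in CP1 and 63.5, 60.9, 58.5 and 65.1 CPM in CP2. The CP2 tumours lay close together above all others, and the P1 and CP1 tumours overlapped. The rise in CP2 was 2.17-fold over P1 (log2 1.12 ± 0.14, adjusted p = 8.062e-05) and 2.12-fold over CP1 (log2 1.08 ± 0.14, adjusted p = 2.074e-04). CP1 against P1 was log2 0.03 ± 0.14 (adjusted p = 0.870), which turned to -0.13 without P1 replicate 3 and to -0.11 without CP1 replicates 2 and 3, and was called higher with P1 replicate 3 as the only P1 tumour (log2 0.37, adjusted p = 0.0468). Rb1 shares 488 exonic bases with Rcbtb2 and 408 with Lpar6, both on the opposite strand, and no source used here gives the strand setting of the counting. Rcbtb2, at means of 35.8, 44.6 and 49.3 CPM in P1, CP1 and CP2, was higher in CP2 than in P1 (log2 0.46 ± 0.10, adjusted p = 0.0033), as Rb1 was. Lpar6, a receptor gene for lysophosphatidic acid at 26.5 to 34.1 CPM in P1 and 8.34 to 11.2 CPM in CP2, was lower in CP2 than in P1 (log2 -1.68 ± 0.14, adjusted p = 6.765e-06). The part of reads from these genes in the Rb1 counts was not tested.

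**Figure D4:**
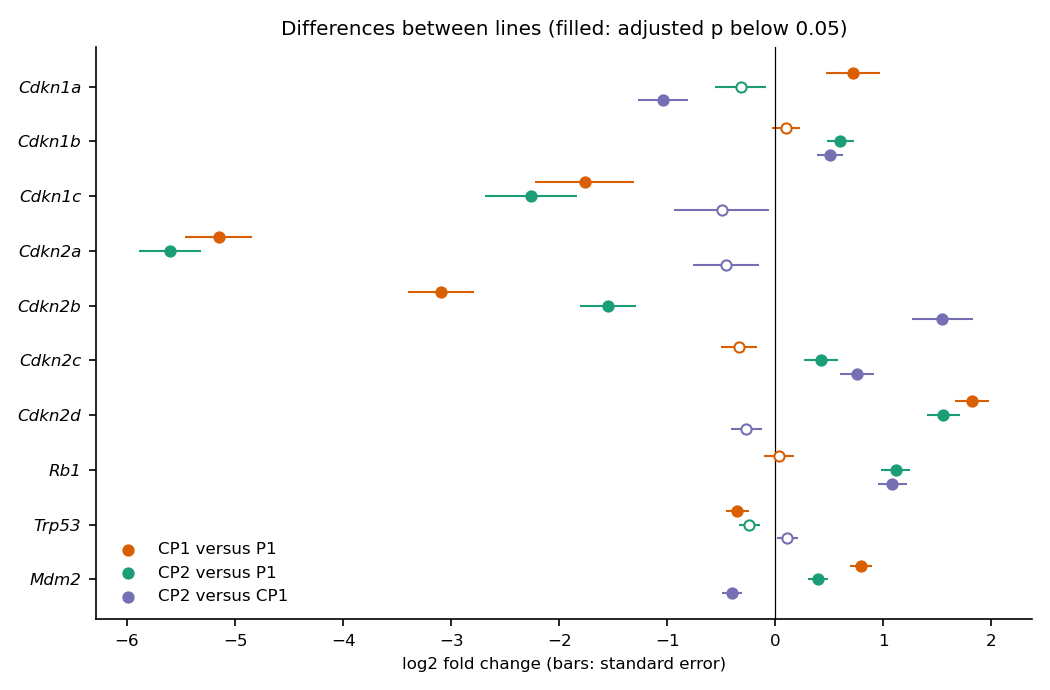
Log2 fold change (x axis, points, with SE as bars) of the 10 genes in CP1 against P1, CP2 against P1 and CP2 against CP1, filled where the adjusted p was below 0.05. Cdkn2a, Cdkn2b and Cdkn1c lie left of 0 in both comparisons with P1 and Cdkn2d and Mdm2 right of it, while Rb1 and Cdkn1b are filled only where CP2 is compared.

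The relatives of Rb1 and their E2F partners were mostly higher in the CP lines. Of 12 such genes 7 were higher and 1 lower in CP1, and 8 higher and 1 lower in CP2, with medians of log2 0.43 and 0.73. For all genes the shares were 22.4% higher and 22.4% lower in CP1, and 28.3% and 28.4% in CP2. Rbl2, the pocket protein p130 of resting cells, was at 59.8, 64.6 and 37.3 CPM in P1, 65.8, 67.1 and 73.3 CPM in CP1 and 182, 154, 141 and 146 CPM in CP2. CP2 was thus above every other tumour, by log2 1.18 ± 0.18 over CP1 (adjusted p = 5.841e-04), and Rbl2 was also one of the 2 genes whose pattern was most like that of Cdkn1b. Rbl1, which encodes p107, rose by log2 0.68 ± 0.14 in CP1 (adjusted p = 0.0035) and 1.14 ± 0.14 in CP2 (adjusted p = 7.971e-05). E2f1, an activator of S phase genes, rose by log2 1.36 ± 0.17 in CP1 (adjusted p = 1.166e-04) and 1.72 ± 0.16 in CP2 (adjusted p = 1.485e-05). The repressor E2f8 rose by log2 2.14 ± 0.15 in CP1 (adjusted p = 3.880e-06), and the repressor E2f7 by 1.94 ± 0.19 in CP2 (adjusted p = 2.046e-05). In the other CP line each was also above every P1 tumour. E2f8 stood at 32.8 to 45.4 CPM in CP2 against 14.0 to 14.3 CPM in P1. E2f7 stood at 9.55 to 14.3 CPM in CP1 against 4.24 to 5.25 CPM in P1. Tfdp2, a dimer partner of E2F proteins, fell by log2 -1.14 ± 0.20 in CP1 (adjusted p = 0.0013) and -0.58 ± 0.19 in CP2 (adjusted p = 0.0237).

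No E2F target gene or proliferation marker of the lists was called lower in CP1 or CP2 than in P1. Of 18 E2F targets, 9 were higher and 0 lower in CP1 and 14 higher and 0 lower in CP2 (medians log2 0.42 and 0.71), and of 12 proliferation markers 11 and 10 were higher and 0 lower (medians log2 0.95 and 0.81). The shares of all genes were 22.4% higher and 22.4% lower in CP1, and 28.3% and 28.4% in CP2. Rrm2, the regulated subunit of ribonucleotide reductase, went from 111 ± 24.8 CPM (SD, n = 3) in P1 to 837 ± 360 CPM in CP1 (n = 3) and 274 ± 52.8 CPM in CP2 (n = 4). Foxm1, which drives genes of mitosis, rose from 37.2 ± 1.96 CPM in P1 to 84.4 ± 1.74 CPM in CP1 and 114 ± 13.3 CPM in CP2. Between the CP lines 7 E2F targets were higher and 1 lower in CP2, and 4 proliferation markers were higher and 3 lower. There, 21.3% of all genes were higher and 21.9% lower.

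Of 9 cyclins, kinases and regulators of G1, 3 were higher and 3 lower in CP1, and 5 higher and 1 lower in CP2, both against P1. All genes gave 22.4% higher and 22.4% lower in CP1, and 28.3% and 28.4% in CP2. In CP2 against CP1, 3 were higher, 1 was lower and 5 were not called, near the shares of all genes (21.3% higher and 21.9% lower). Cyclin D1 (Ccnd1) was at 349 to 472 CPM in P1, 312 to 405 CPM in CP1 and 929 to 1153 CPM in CP2, a rise of log2 1.35 ± 0.15 over P1 (adjusted p = 4.285e-05) and 1.54 ± 0.15 over CP1 (adjusted p = 4.718e-05). Cyclin E2 (Ccne2) rose by log2 1.15 ± 0.21 in CP1 (adjusted p = 0.0014) and 1.57 ± 0.20 in CP2 (adjusted p = 1.102e-04). Cdk6, a target of the Ink4 proteins, was lower in CP1 (log2 -1.14 ± 0.22, adjusted p = 0.0018), and Cdk4, the other target, was not called (log2 -0.15 ± 0.14 in CP1 and -0.18 ± 0.13 in CP2). Cdc25a, a phosphatase that activates Cdk2, was lower in CP2 than in P1 (log2 -1.17 ± 0.09, adjusted p = 5.251e-06). Of 10 genes that govern the breakdown of p27 and related proteins, 5 were higher and 1 lower in CP1. In CP2 7 were higher and 2 lower, beside the same shares of all genes against P1 (22.4% and 22.4% in CP1, 28.3% and 28.4% in CP2). Skp2, the ubiquitin ligase subunit that recognises p27, rose by log2 1.14 ± 0.15 in CP1 (adjusted p = 1.639e-04) and 0.93 ± 0.14 in CP2 (adjusted p = 3.024e-04).

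Trp53 (ENSMUSG00000059552, chromosome 11, 69580359 to 69591873) varied least of the 10 genes between the line means. It stood at 132, 123 and 151 CPM in P1, 117, 103 and 99.5 CPM in CP1 and 105, 121, 118 and 115 CPM in CP2. P1 was above every CP tumour by a narrow margin, and CP1 and CP2 overlapped. The fall in CP1 was log2 -0.35 ± 0.10 (adjusted p = 0.0199), not called without CP1 replicate 2 (adjusted p = 0.0658), without CP1 replicate 3 (0.0784), without both (log2 -0.21, adjusted p = 0.359) or in a fit of only P1 and CP1 (0.0696). CP2 against P1 was log2 -0.24 ± 0.10 (adjusted p = 0.0565). It was called lower without P1 replicate 2 (log2 -0.33, adjusted p = 0.0273), without P1 replicates 1 and 2 (log2 -0.43, adjusted p = 0.0155), with DESeq2 size factors (0.0403), with the DESeq2 Wald test (0.0253) and with scaling without the seminal vesicle list (0.0348). Counts of RNA give neither the amount nor the activity of p53 protein, and no allele of Trp53 was examined.

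Mdm2 (ENSMUSG00000020184, chromosome 10, 117688875 to 117710758) was at 59.0, 61.0 and 59.3 CPM in P1, 89.5, 105 and 116 CPM in CP1 and 77.7, 80.8, 73.3 and 82.6 CPM in CP2. The 3 lines did not overlap, with P1 lowest, CP2 between and CP1 highest. Mdm2 rose 1.73-fold in CP1 (log2 0.79 ± 0.10, adjusted p = 1.459e-04) and 1.31-fold in CP2 (log2 0.40 ± 0.09, adjusted p = 0.0050). CP2 was below CP1 by log2 -0.40 ± 0.09 (adjusted p = 0.0067), a difference that without CP1 replicates 2 and 3 was -0.19 and not called (adjusted p = 0.255). With P1 replicate 3 as the only P1 tumour, the CP2 rise was log2 0.38 and not called (adjusted p = 0.0692). Calls among 13 other p53 regulators and damage kinases tested were 5 higher and 0 lower for CP1, and 6 higher and 0 lower for CP2. Calls among all genes were 22.4% higher and 22.4% lower for CP1, and 28.3% and 28.4% for CP2. Cop1, another ubiquitin ligase for p53, rose by log2 0.73 ± 0.08 in CP1 (adjusted p = 6.671e-05). It was also above P1 in CP2, at 54.0 to 61.0 CPM against 34.4 to 38.1 CPM. The largest called rise of this list in CP1 was that of Trp63 (log2 2.19 ± 0.68, adjusted p = 0.0240), also a prostate epithelial marker here. Trp63 stood at 4.66, 41.0 and 29.4 CPM in CP1 replicates 1, 2 and 3 and overlapped P1, at 8.74, 5.20 and 2.41 CPM. Ppm1d, the phosphatase that dampens p53 signalling and is itself a p53 target, rose by log2 1.21 ± 0.13 in CP2 (adjusted p = 3.649e-05), and Atm, a kinase activated by DNA breaks, by 0.81 ± 0.21 (adjusted p = 0.0084).

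Other p53 targets moved in both directions. Of 23 tested, 5 were higher and 6 lower in CP1 (median log2 0.10), 3 higher and 10 lower in CP2 (median log2 -0.32), and 3 higher and 12 lower in CP2 against CP1 (median log2 -0.36). Among all genes, 22.4% were higher and 22.4% lower in CP1, and 28.3% and 28.4% in CP2. For CP2 against CP1 these shares were 21.3% and 21.9%. Gdf15, a stress cytokine, was at 2.89, 3.55 and 6.16 CPM in P1, 28.0, 31.6 and 50.1 CPM in CP1 and 14.9, 22.5, 10.8 and 17.4 CPM in CP2. All CP tumours were thus above P1, by log2 3.12 ± 0.37 in CP1 (adjusted p = 9.679e-05) and 1.97 ± 0.34 in CP2 (adjusted p = 8.168e-04). Btg2, an antiproliferative gene, was at 64.5 to 90.3 CPM in P1, 28.7 to 44.1 CPM in CP1 and 9.89 to 17.1 CPM in CP2, and fell by log2 -2.65 ± 0.22 in CP2 (adjusted p = 8.409e-06). Ccng1 (cyclin G1) was at 157 to 179 CPM in P1, 164 to 185 CPM in CP1 and 109 to 117 CPM in CP2, where it was lower than in CP1 by log2 -0.64 ± 0.08 (adjusted p = 1.837e-04). Perp, which also builds desmosomes of epithelia, fell by log2 -1.93 ± 0.67 in CP1 (adjusted p = 0.0377) and -5.67 ± 0.71 in CP2 (adjusted p = 1.028e-04), next to the epithelial marker shares of at most 0.258% and 0.0751% in those lines against at least 0.979% in P1. The part of epithelial content in these falls was not tested.

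**Figure D5:**
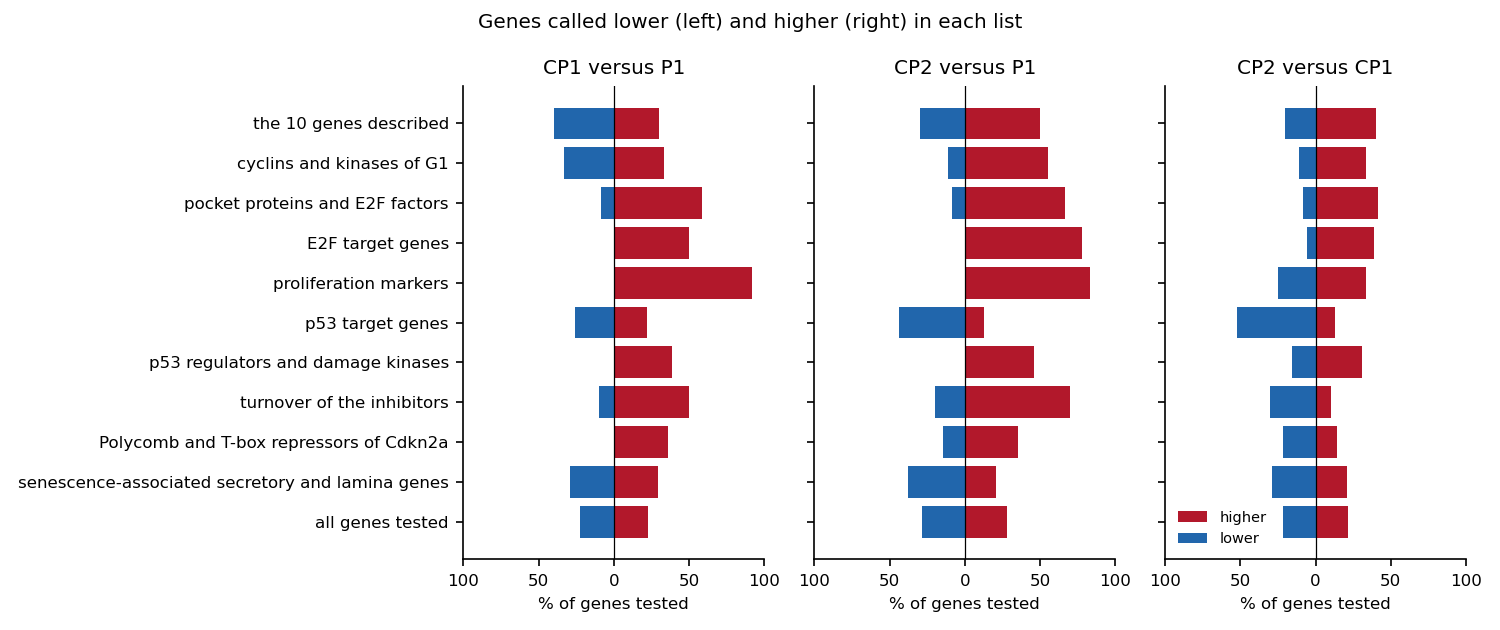
Percentage of the genes tested in each list (x axis) that were called lower (left of 0) and higher (right of 0) in CP1 against P1, CP2 against P1 and CP2 against CP1, with all 17644 genes tested in the last row. E2F targets and proliferation markers have no gene lower than in P1, and p53 targets have 10 of 23 lower in CP2 than in P1 and 12 of 23 lower than in CP1.

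For each of the 10 genes, the 2 genes with the most similar log2 CPM over the 10 tumours were taken among 11964 genes with a symbol and a mean of at least 5 CPM (11965 for Cdkn1c). The Pearson r is a description, since tumours of a line share their source. Cdkn2a was matched by Igsf9 (0.993) and Fgf13 (0.992), and 352 genes had an r above 0.95 with it. Cdkn2b was matched by Itgb4 (0.991), an integrin subunit of hemidesmosomes, and Pnpla6 (0.986). Rb1 was matched by Smurf2 (0.992) and Atxn1l (0.992), with 233 genes above 0.95, and Cdkn2d by Ppme1 (0.993) and Scpep1 (0.991), with 144. Cdkn1b was matched by Mib1 (0.978) and Rbl2 (0.970), Mdm2 by Atg4c (0.978) and Nup88 (0.978), and Trp53 by Med29 (0.984) and Imp4 (0.983). Cdkn1c (Abhd14b, 0.966, and Trpm4, 0.960) and Cdkn2c (Pex2, 0.968, and Pigp, 0.957) had less close matches. Cdkn1a had the least close ones (Palm, 0.933, and Cs, 0.928) and 0 genes above 0.95.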

How the data were processed

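The authors deposited whole-number read counts per Ensembl gene, with a separate file for each tumour and no normalisation. The build was GRCm38.p3 and the aligners TopHat2 2.1.0 and Bowtie2 2.2.6.0, beside HTSeq 0.6.0, per the submitters' processing notes, with order and parameters not given in the sources used here. Of 47069 gene IDs, 46574 matched GENCODE M21 (GRCm38), which gave symbols, coordinates and exon lengths, and 495 did not. Groups came from the labels, and totals ranged from 18800912 to 37180721 counts per tumour. No replicate pair held identical counts.

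Counts were tested with edgeR 4.0.16 (limma 3.58.1, R 4.3.3): filterByExpr (minimum count 10, minimum total 15), TMM factors, and a single quasi-likelihood fit of all 10 tumours with a mean per line. P-values were adjusted over all 17644 genes by the Benjamini-Hochberg method. Each SE was taken as log2 fold change over the root of F. The code was tested on simulated data. Similarity of pattern used log2 of CPM plus 0.5. Alternatives were DESeq2 size factors, scaling without the seminal vesicle list, no filter, DESeq2 1.42.0, limma-voom, a fit of only the compared lines, left-out tumours and a replicate block. The same 4 tumours without that block were added after seeing the data.

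The 10 genes and the lists were chosen with earlier results of these data known. Named were the 10 genes, their neighbours and overlapping genes, the 2 genes most like each, and up to 2 called genes in each direction per list and comparison, from which the text names fewer. Rbl1, Ccng1, Cdk4, Bmi1 and Kdm6b were added after their values were seen. RefSeq windows were found for 8 of the 10 genes. Part of the genotypes is not reported here.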

Additional observations from a re-analysis of the deposited data

How the results depend on the processing

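Of 440 values of the 10 genes under alternatives, 395 kept direction and side of the threshold, 32 lost the call, 8 gained it and 5 changed sign. No call of Cdkn2a, Cdkn2b or Cdkn2d against P1, or of Rb1 in CP2 against P1 or CP1, was lost in any setting run. Sign changes, none of them in called values, were Cdkn1b in CP1 against P1 without P1 replicate 3 (log2 -0.0165, up to 0.178 without another tumour), Rb1 in CP1 against P1 without P1 replicate 3 (-0.133, up to 0.141) and without CP1 replicates 2 and 3 (-0.106), and Cdkn1c (0.0201) and Trp53 (-0.0341) in CP2 against CP1 without CP1 replicates 2 and 3. In CP2 against P1 without P1 replicates 1 and 2, Cdkn1a and Trp53 were at log2 -0.85 and -0.43, against -0.32 and -0.24 with all tumours. In CP2 against CP1 without CP1 replicates 2 and 3, 2 were higher and 0 lower (edgeR), beside 4161 of all genes called and 7635 with all tumours. Each of these settings leaves 1 tumour of a line, assumed to vary like the other lines. The causes were not tested.

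P1 and CP2 titles share the numbers 19 and 21. With that number as a replicate block over 4 tumours, 2 of the genes were higher in CP2 and 4610 of all genes were called. Without the block the same 4 tumours gave 3 and 5298, against 5 and 10001 with all tumours. Deviations of same-numbered tumours correlated at -0.188 and -0.063, and those of differently numbered tumours at -0.221 to 0.262. With so few pairs these values cannot tell whether same-numbered tumours share more than a number. The fewer counts in CP2 limit Cdkn2a and Cdkn1c most, at 8 to 32 counts per library.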

Other observations

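Genes of the senescence-associated secretory and lamina list, which senescent cells are known to release or alter, moved in both directions. Of 24 tested, 7 were higher and 7 lower in CP1 than in P1, 5 higher and 9 lower in CP2 than in P1, and 5 higher and 7 lower in CP2 than in CP1, with medians of log2 0.01, -0.02 and -0.07. All genes also moved in both directions, with 22.4% higher and 22.4% lower in CP1 and 28.3% and 28.4% in CP2. In CP2 against CP1 these shares were 21.3% and 21.9%. Mmp10, a matrix metalloproteinase, was at 1.45, 0.467 and 3.61 CPM in P1, 15.4, 14.2 and 26.0 CPM in CP1 and 77.2, 84.1, 91.2 and 76.4 CPM in CP2. The 3 lines did not overlap, and Mmp10 rose by log2 3.35 ± 0.52 in CP1 (edgeR adjusted p = 5.561e-04) and 5.50 ± 0.55 in CP2 (adjusted p = 2.373e-05). Its relative Mmp3 rose by log2 3.19 ± 0.43 and 5.30 ± 0.47. Cxcl5, a chemokine that attracts neutrophils, fell by log2 -4.55 ± 0.37 in CP1 (adjusted p = 1.012e-05). In CP2 Cxcl5 was also below P1, at 1.44 to 3.24 CPM against 23.0 to 42.9 CPM. Igfbp5, a binding protein of insulin-like growth factors, fell by log2 -4.19 ± 0.40 in CP2 (adjusted p = 1.779e-05). Il6, a core cytokine of the senescent secretome, stood at 0.961 ± 0.476 CPM (SD, n = 3) in P1, 2.32 ± 0.559 CPM in CP1 (n = 3) and 0.408 ± 0.0748 CPM in CP2 (n = 4), and was lower in CP2 than in CP1 by log2 -2.50 ± 0.36 (adjusted p = 4.452e-04). Hmga2, a chromatin protein known for keeping Cdkn2a low in stem cells, stood at 5.42, 6.70 and 7.11 CPM in P1. It rose from 12.2 ± 2.74 CPM in CP1 to 111 ± 21.2 CPM in CP2 (log2 3.18 ± 0.21, adjusted p = 6.107e-06). Cdkn2a did not differ detectably between CP1 and CP2, and a link of Hmga2 with it was not tested. The summed fibroblast marker share, given in the report and mostly from collagen genes, was highest in CP1, and its part in these values was not tested. Lmnb1, the lamin B1 gene whose loss marks senescent cells, was chosen after its values were seen and was not called in any comparison (log2 -0.05 ± 0.16 in CP1 and 0.28 ± 0.15 in CP2 against P1).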
